A study of Mus musculus with 12 samples.

Results

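The cytochrome P450 genes were taken as every probe of the array whose platform gene symbol begins with Cyp, a family number, a subfamily letter and a member number. This gave 128 probes of 86 genes, out of 45281 probes and 19057 named genes on the array, and it leaves out Cyp51, whose symbol has no subfamily letter. Family 1 had 3 genes, family 2 had 43, family 3 had 7, family 4 had 17 and the remaining families had 16. Of the 86 genes, 42 had a probe bright enough to be tested.

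Cytochrome P450 enzymes are haem proteins that insert an oxygen atom into lipophilic substrates, with electrons passed on by P450 reductase, cytochrome b5 or, in mitochondria, adrenodoxin. Families 1 to 3 oxidise mainly foreign compounds and steroids, family 4 mainly fatty acids and eicosanoids, and most of the remaining families make or break down sterols, bile acids, steroid hormones, vitamin D or retinoic acid. In the intestine these enzymes sit largely in mature absorptive cells and act on food and drug compounds before these reach the liver.

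RNA was measured on 12 Illumina mouse BeadChip arrays, in 4 groups of 3 that combine colon or small intestine with 2 genotypes. Every mouse was C57BL/6 and 3 months old (12 weeks in the rearing protocol), had intact Apc and, per the genotype labels, carried Villin-Cre, a Cre recombinase driven by the Villin promoter in intestinal epithelium. Wild type stands for Apc+/+ Cftr+/+-Villin-Cre (the rearing protocol gives these mice without the Cre) and mutant for Apc+/+ Cftrfl/fl-Villin-Cre, in which Cre deletes Cftr, a chloride and bicarbonate channel, from the epithelium. The design text words the mutants as Apc Cftr-deficient, and the genotype label was followed. For colon, epithelium was taken off the distal region before RNA extraction, although a protocol field speaks of whole tissue, and small-intestinal samples were mid-duodenum wall stripped of villi, with stroma included. Nothing in the labels says that arrays of equal number are 1 mouse, and all p-values below rest on the variation among these arrays alone, part of which may be technical. In bulk RNA, fewer cells of a type and less RNA per cell cannot be told apart.

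The values are the authors' normalised log2 intensities, with medians of 7.76 on every array. Background probes pile up near 7.70, and a probe counted as above background over 7.78 (3 SD above that mode). The Cftr probe lay near 8 on all arrays and did not differ between genotypes (0.09 ± 0.08 SE in colon, -0.04 ± 0.08 in small intestine, limma adjusted p = 0.956 and 0.998). It thus gives no check of the genotype labels. Epithelial markers (Vil1, Krt8 and 6 others) averaged 11.6 to 12.0 on every array, although Epcam, 1 of them, read 7.69 to 7.84, near background. Of the 8 markers 2 were called higher and 5 lower in wild-type small intestine than in wild-type colon. Absorptive enterocyte markers averaged 11.9 to 12.2 over 12 genes on the small-intestinal arrays despite the removal of villi, and 7.90 to 8.39 in colon. Of these 12 genes, 10 passed the background filter. Pancreatic acinar markers, over 11 of 12 genes, stood at 11.85 on wild type 2 of the small intestine and at 10.22 and 11.66 on its mutant arrays 1 and 2. The other 3 small-intestinal arrays read 8.20 to 8.33. Results on the small intestine are therefore given with and without those 3 arrays.

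By the brightest probe of each gene, 18 of the 42 tested genes were above background on all 12 arrays. The 5 genes Cyp2b10, Cyp2b23, Cyp3a11, Cyp4f18 and Cyp7b1 were above it on all 6 small-intestinal arrays and on no colon array. The reverse held for 4 genes of family 2, Cyp2d9, Cyp2d12, Cyp2d34 and Cyp2f2. The other 15 were mixed. The 44 genes that did not pass had 57 probes, of which 43 were above background on 0 arrays and 14 on 1 or 2, with a highest value of 7.95. Among them were Cyp1a1 and Cyp1a2, the classic targets of the aryl hydrocarbon receptor, Cyp2j6, Cyp2c29, Cyp26b1, which degrades retinoic acid, Cyp7a1 and Cyp8b1, which act in bile acid synthesis in liver, and every listed Cyp4a gene. Cyp4a10 had no listed probe. By family, 1 of 3, 20 of 43, 3 of 7, 9 of 17 and 9 of 16 genes of families 1, 2, 3, 4 and the rest were tested.

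**Figure D1:**
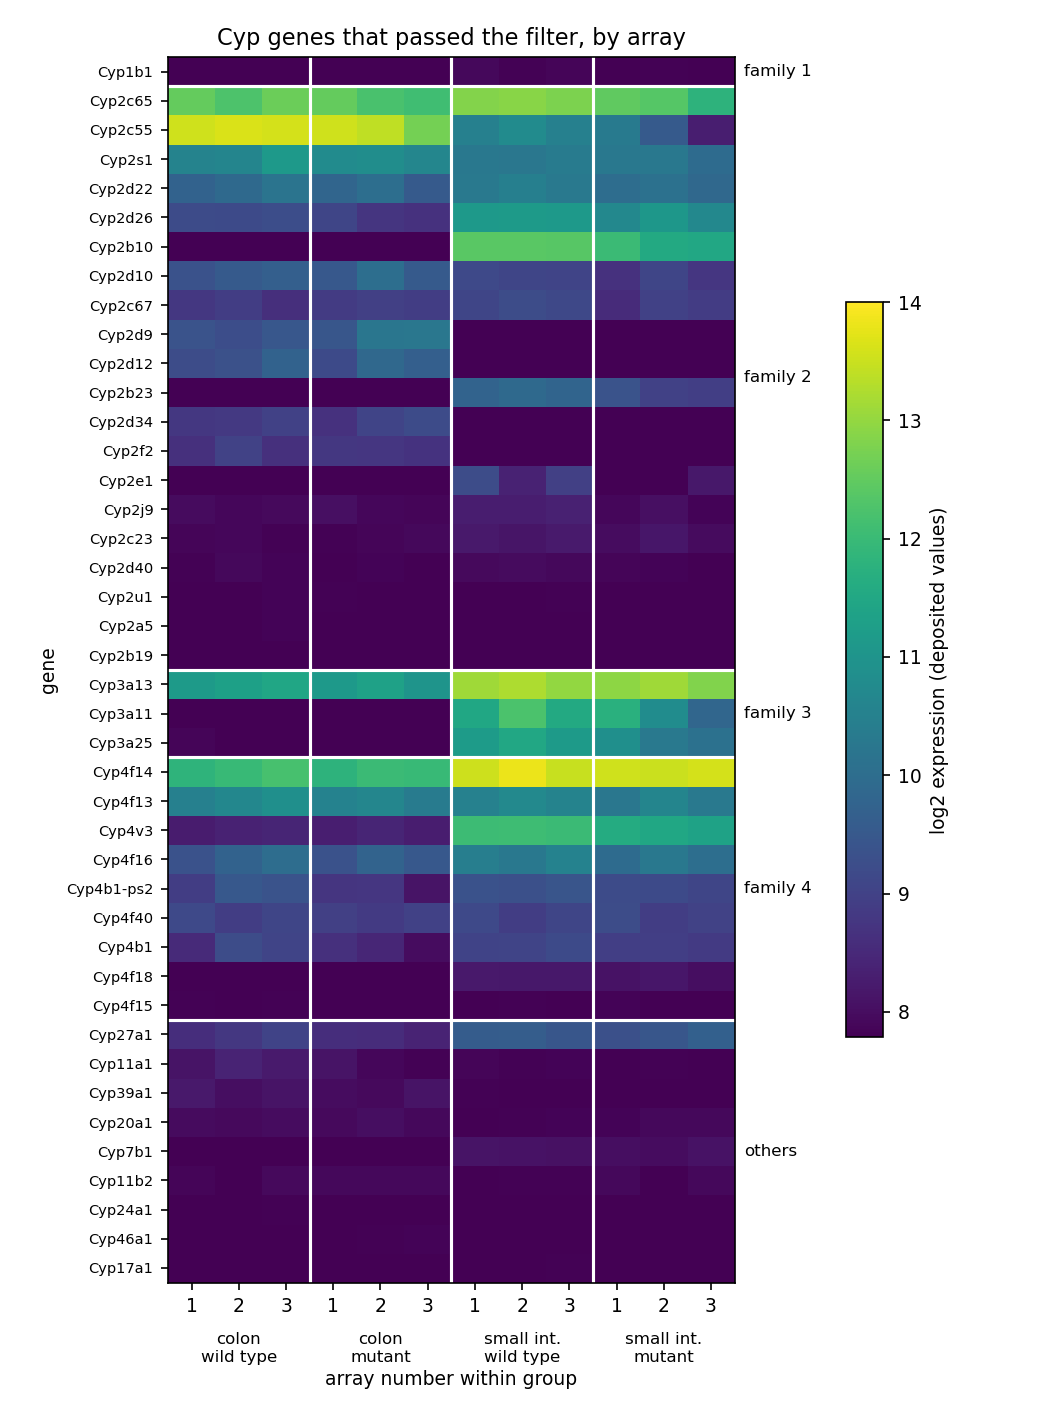
Deposited log2 expression of the 42 tested Cyp genes (rows, grouped by family) on the 12 arrays (columns, by tissue and genotype), with colours starting at the background limit of 7.78. The family 3 genes Cyp3a11 and Cyp3a25 are bright on the small-intestinal arrays and near background in colon, while Cyp2d9, Cyp2d12, Cyp2d34 and Cyp2f2 show the reverse.

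The first comparison asks which Cyp genes differ between villus-depleted duodenum and distal colon epithelium when Cftr is intact. In wild-type mice, 18 of the 42 tested Cyp genes were higher in small intestine and 10 were lower (limma adjusted p under 0.05). Of all 15909 features tested, 41.4% were called in this contrast, 17.9% higher and 23.5% lower. The groups did not overlap for 21 genes on the higher and 12 on the lower side, against 23.1% and 31% of all features. The median difference was 0.09 on the log2 scale over the 42 genes and -0.02 over all features. All 3 tested genes of family 3 were higher in small intestine, as were 4 of 9 in family 4 with none lower, 8 of 20 in family 2 with 7 lower, and the 1 of family 1. Of the remaining families 2 were higher and 3 lower. Smooth muscle markers moved with tissue as well, at 10.4 to 10.7 in small intestine and 7.76 to 7.96 in colon over 6 genes, and their part in the Cyp differences was not tested. Without the 3 arrays high in pancreatic markers 25 Cyp genes were called in wild type, among 5906 of all features. In mutants a single small-intestinal array was left, so no count is given. The median difference there was 0.008 over the Cyp genes and -0.014 over all features.

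Family 3 holds the main drug and steroid oxidases of the gut. Cyp3a11, often taken as the mouse counterpart of human CYP3A4, read 11.49, 12.23 and 11.55 on the wild-type small-intestinal arrays and 7.70, 7.77 and 7.69 in colon. With the colon arrays below background the fold is a lower bound, taken against the lowest signal above background, and it was at least 15.7-fold (limma adjusted p = 9.1e-06). Its chromosomal neighbour Cyp3a25 read 11.19, 11.51 and 11.16 in small intestine and 7.86, 7.72 and 7.72 in colon, 11.5-fold higher by the measured means, with 1 of the 3 colon arrays above background (3.52 ± 0.17 SE on the log2 scale, limma adjusted p = 5.86e-08). Cyp3a13, an extrahepatic member of the family, was bright in both tissues. It read 13.12, 13.25 and 12.98 in small intestine and 11.18, 11.32 and 11.45 in colon, a 3.48-fold difference (1.80 ± 0.11 SE, limma adjusted p = 3.31e-07). In none of the 3 did any colon array reach a small-intestinal one.

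Cyp2b10, a drug-oxidising enzyme and textbook target of the constitutive androstane receptor, had the largest difference of any tested Cyp gene. It read 12.40, 12.42 and 12.40 on the wild-type small-intestinal arrays and 7.74, 7.71 and 7.70 in colon. The lower bound was 24.6-fold (limma adjusted p = 2.53e-10). A second, much dimmer Cyp2b10 probe read 8.01 to 8.19 in small intestine and 7.73 to 7.84 in colon and differed by only 0.29 on the log2 scale. Cyp2b23 of the same gene cluster read 9.77, 9.90 and 9.79 in small intestine against 7.73, 7.66 and 7.77, at least 4.10-fold higher (limma adjusted p = 4.53e-08). Its second probe was above background on 0 arrays, and whether the first also reads Cyp2b10 transcript was not tested. The genes Cyp2b9 and Cyp2b13 lie between them and did not pass the background filter.

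Family 4 members act on fatty acids. Cyp4v3, the mouse counterpart of the human fatty acid hydroxylase gene CYP4V2, read 12.05, 12.06 and 12.01 in small intestine and 8.25, 8.38 and 8.44 in colon, 12.9-fold higher (3.69 ± 0.07 SE, limma adjusted p = 6.17e-11). Cyp4f14, which hydroxylates the ends of vitamin E and leukotriene side chains, read 13.53, 13.82 and 13.49 against 11.82, 11.98 and 12.19, 3.06-fold higher (limma adjusted p = 8.58e-07). Cyp4f16 (0.73 ± 0.16 SE) and Cyp4f18 (at least 1.33-fold) were also called higher. Cyp4b1, an enzyme of lung and bladder epithelium in rodents, read 9.03, 9.05 and 9.18 in small intestine and 8.53, 9.22 and 9.05 in colon, in overlapping groups (0.15 ± 0.18 SE, limma adjusted p = 0.555).

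Among the other genes higher in small intestine were Cyp2d26, a hepatic and intestinal family 2 member, and Cyp2e1, the ethanol- and acetone-oxidising enzyme. Cyp2d26 read 11.13, 11.17 and 11.14 against 9.20, 9.17 and 9.26 in colon, 3.82-fold higher (limma adjusted p = 3.16e-07). Cyp2e1 read 9.23, 8.37 and 8.97 against 7.67, 7.70 and 7.73, at least 2.10-fold higher (limma adjusted p = 6.22e-04). Cyp27a1, the mitochondrial sterol hydroxylase of bile acid synthesis, read 9.59, 9.62 and 9.44 against 8.60, 8.80 and 9.03 (0.74 ± 0.12 SE, limma adjusted p = 4.93e-04). Cyp7b1, which hydroxylates oxysterols, was at least 1.24-fold higher. Cyp1b1, an aryl hydrocarbon receptor target that oxidises oestrogens, read 7.91, 7.82 and 7.87 against 7.75, 7.73 and 7.70, a small difference close to background (0.14 ± 0.03 SE, limma adjusted p = 0.00319).

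The gene with the largest difference in favour of colon was Cyp2c55, an arachidonic acid hydroxylase known from mouse colon. It read 13.54, 13.65 and 13.59 on the wild-type colon arrays and 10.50, 10.77 and 10.49 in small intestine, 8.05-fold lower there (-3.01 ± 0.41 SE, limma adjusted p = 1.65e-04). Its neighbour on chromosome 19, Cyp2c65, was bright in both tissues, with 12.53, 12.26 and 12.60 in colon and 12.85, 12.90 and 12.77 in small intestine. The groups did not overlap, and the difference of 0.38 ± 0.17 SE did not pass (limma adjusted p = 0.112). With only the wild-type arrays in the fit it did (limma adjusted p = 0.0175).

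The genes Cyp2d9, Cyp2d12, Cyp2d34 and Cyp2f2 were measured in colon only. Cyp2d9, known as a steroid hydroxylase of male mouse liver, read 9.36, 9.26 and 9.48 in wild-type colon and 7.68, 7.69 and 7.75 in small intestine, at least 3.00-fold higher in colon (limma adjusted p = 2.45e-05). Cyp2d12 read 9.24, 9.34 and 9.74 in colon and 7.69, 7.66 and 7.72 in small intestine, at least 3.15-fold higher in colon (limma adjusted p = 9.05e-06). Cyp2d34 read 8.78, 8.82 and 8.98 against 7.68, 7.68 and 7.69, at least 2.11-fold higher in colon (limma adjusted p = 9.97e-06). For all of these the tissues were far apart on every array. Cyp2f2, the naphthalene-oxidising enzyme of airway club cells, read 8.65, 9.003 and 8.65 in colon and 7.76, 7.73 and 7.72 in small intestine, at least 1.98-fold higher in colon (limma adjusted p = 2.34e-06).

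The 7 tested Cyp2d genes of chromosome 15 lie in the order Cyp2d22, Cyp2d10, Cyp2d9, Cyp2d12, Cyp2d34, Cyp2d40 and Cyp2d26. The 4 in the middle from Cyp2d10 to Cyp2d34 were each lower in small intestine, the outer genes Cyp2d22 and Cyp2d26 were each higher, and Cyp2d40 did not pass (limma adjusted p = 0.0944). Cyp2d10 read 9.35, 9.55 and 9.67 in colon and 9.15, 9.07 and 9.06 in small intestine (-0.43 ± 0.15 SE, limma adjusted p = 0.0405), a call lost when any wild-type array but colon 1 was left out (limma adjusted p = 0.0688 to 0.128). Cyp2d22 was higher in small intestine by 0.41 ± 0.13 SE. Genes of such a cluster are close copies, and whether a probe also reads a neighbour's transcript was not tested. The promoters of the neighbours Cyp2d9 and Cyp2d10 and of the neighbours Cyp2c55 and Cyp2c65 are printed below. Their part in the tissue differences was not tested. Each line gives the 250 bases before the RefSeq transcription start on GRCm38.p6, 5′ to 3′ along the gene. They lie at chr15:82452127-82452376 (plus strand), chr15:82407195-82407444 (minus strand), chr19:39006769-39007018 (plus strand) and chr19:39060756-39061005 (plus strand). Capitals mark TATAAA on either strand (read as TTTATA on the opposite one), the letters of a TATA box, and CAAAGT, a core of sites for the liver and gut factor HNF4.
Cyp2d9: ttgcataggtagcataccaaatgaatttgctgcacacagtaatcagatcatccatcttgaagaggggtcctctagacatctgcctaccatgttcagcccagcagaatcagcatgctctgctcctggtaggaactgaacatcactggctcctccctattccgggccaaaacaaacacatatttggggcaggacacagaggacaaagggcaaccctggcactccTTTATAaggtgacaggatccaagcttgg
Cyp2d10: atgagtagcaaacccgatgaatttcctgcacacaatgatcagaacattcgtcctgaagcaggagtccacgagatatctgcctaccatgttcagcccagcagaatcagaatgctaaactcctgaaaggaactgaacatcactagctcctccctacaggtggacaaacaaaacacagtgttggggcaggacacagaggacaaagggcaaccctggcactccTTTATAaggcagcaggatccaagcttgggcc
Cyp2c55: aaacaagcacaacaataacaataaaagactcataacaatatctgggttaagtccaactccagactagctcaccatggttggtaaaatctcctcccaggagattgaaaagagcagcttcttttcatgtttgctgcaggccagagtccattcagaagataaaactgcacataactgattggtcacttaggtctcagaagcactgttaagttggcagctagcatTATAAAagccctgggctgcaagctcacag
Cyp2c65: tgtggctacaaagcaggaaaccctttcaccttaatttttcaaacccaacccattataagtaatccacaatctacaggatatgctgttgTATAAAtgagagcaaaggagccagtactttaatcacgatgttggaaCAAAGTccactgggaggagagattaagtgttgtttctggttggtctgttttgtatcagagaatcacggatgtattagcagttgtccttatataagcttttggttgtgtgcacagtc
Over 246 aligned bases the Cyp2d9 and Cyp2d10 promoters were 85% identical, and over 231 bases those of Cyp2c55 and Cyp2c65 were 60.6% identical. TATAAA began at position -28 in Cyp2d9 and -31 in Cyp2d10, on the opposite strand in both, where -1 is the last base printed. In Cyp2c55 it began at -29 and in Cyp2c65 at -162, and Cyp2c65 also held CAAAGT at -116. Among all 27025 mouse promoters of this length, 13% held TATAAA and 12.5% held CAAAGT.

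**Figure D2:**
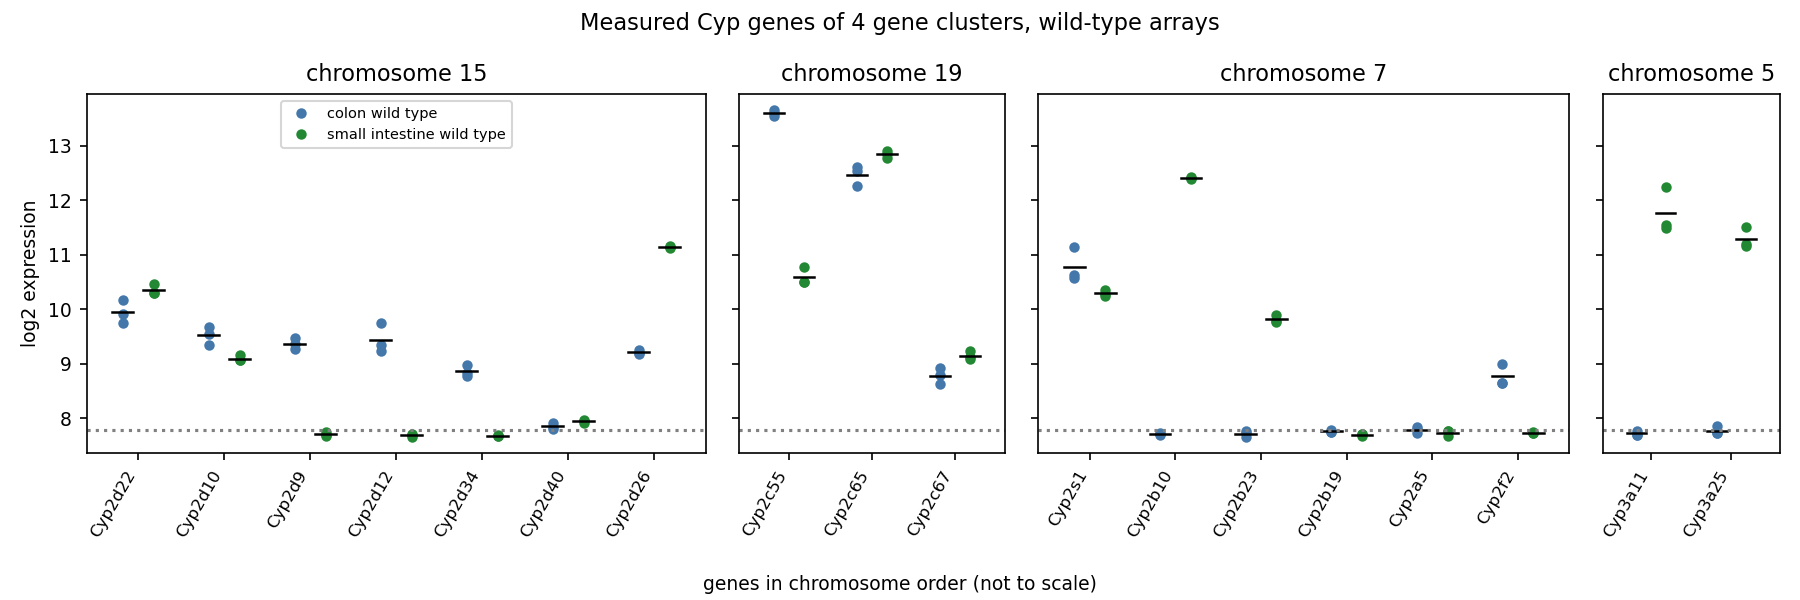
Deposited log2 expression of the tested Cyp genes of 4 chromosomal clusters on the 3 wild-type colon and 3 wild-type small-intestinal arrays (points, with a bar at the mean), genes in chromosome order and the dotted line at the background limit of 7.78. On chromosome 15 Cyp2d9, Cyp2d12 and Cyp2d34 lie above the line in colon and below it in small intestine, flanked by Cyp2d22 and Cyp2d26, which are higher in small intestine.

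The last genes called lower in small intestine were Cyp2s1 and 3 of the smaller families. Cyp2s1, an epithelial P450 that metabolises retinoids, read 10.57, 10.62 and 11.15 in colon and 10.27, 10.24 and 10.36 in small intestine (-0.49 ± 0.14 SE, limma adjusted p = 0.0171). It missed the threshold without small-intestinal wild type 2 (limma adjusted p = 0.0527). Cyp11a1, the mitochondrial enzyme that starts steroid synthesis from cholesterol, read 8.12, 8.39 and 8.24 against 7.86, 7.81 and 7.84 (-0.41 ± 0.08 SE, limma adjusted p = 0.00179). A dimmer second Cyp11a1 probe differed by only -0.05. Cyp39a1, an oxysterol hydroxylase, read 8.21, 8.03 and 8.10 against 7.82, 7.79 and 7.77 (-0.32 ± 0.05 SE, limma adjusted p = 5.69e-04), while a second probe near background gave 0.05. Cyp20a1, which has no assigned substrate, read 7.97, 7.93 and 8.001 against 7.77, 7.82 and 7.83 (-0.16 ± 0.03 SE, limma adjusted p = 0.00313). Cyp24a1, which inactivates vitamin D, read between 7.78 and 7.82 on the 6 wild-type arrays and was not called (limma adjusted p = 0.404).

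In mutant mice 15 Cyp genes were higher in small intestine and 8 were lower, against 39.6% of all features called (17.4% higher and 22.2% lower). The groups did not overlap for 16 genes on the higher and 13 on the lower side, against 21.6% and 27.3% of all features, with a median of 0.02 over the Cyp genes and -0.02 over all features. The genotypes shared 13 of the higher calls (72.2% of those in wild type, 86.7% of those in mutants) and 8 of the lower (80% and 100%), and no gene was called in opposite directions. Called only in wild type were Cyp1b1, Cyp2c67, Cyp2d22, Cyp2e1 and Cyp2j9 on the higher side and Cyp11a1 and Cyp20a1 on the lower. Called only in mutants were Cyp4b1 (0.55 ± 0.18 SE, limma adjusted p = 0.0375) and its pseudogene Cyp4b1-ps2 (0.61 ± 0.18 SE, limma adjusted p = 0.0207). None of these 9 genes passed the test of the difference between the genotypes given below. Cyp2b10 was at least 15.001-fold higher and Cyp3a11 at least 8.06-fold higher in mutant small intestine than in mutant colon, and Cyp2c55 was 14.2-fold lower.

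**Figure D3:**
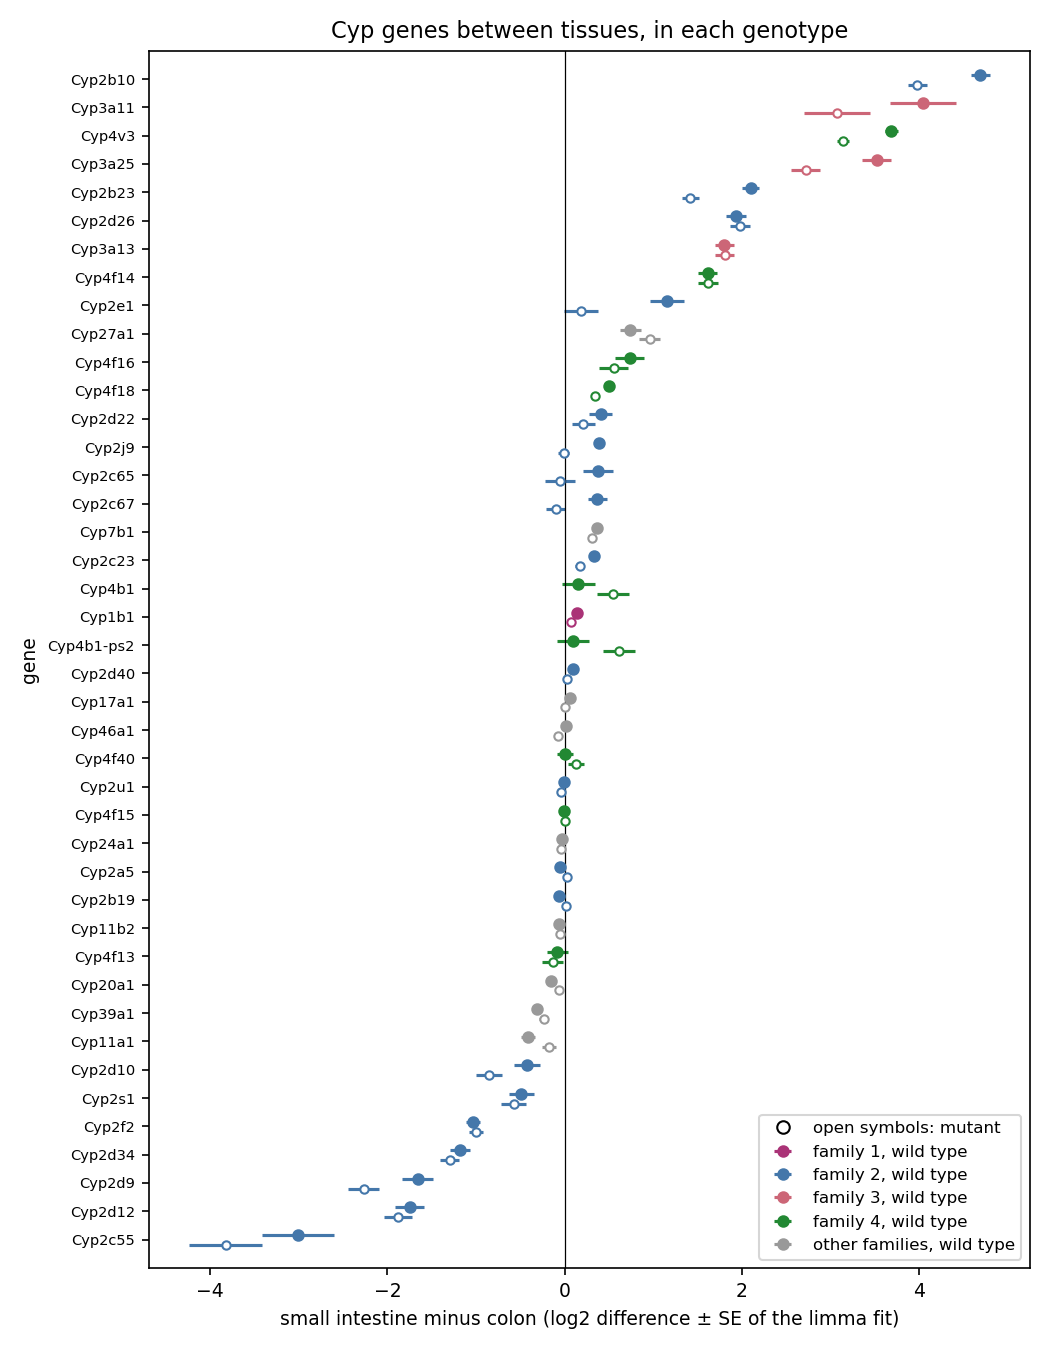
Small intestine minus colon on the log2 scale, with the SE of the limma fit, for the 42 tested Cyp genes in wild type (filled, n = 3 arrays per tissue) and mutant mice (open, n = 3), coloured by family. The wild-type values run from -3.01 for Cyp2c55 to 4.69 for Cyp2b10, and those of genes near background in a tissue understate the difference.

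Whether deletion of Cftr altered these genes in colon epithelium is the question of the second comparison. In colon none of the 42 genes passed, and 0% of all features did (limma, smallest adjusted p among the Cyp genes 0.938). At an unadjusted p under 0.05 there were 7 Cyp genes, 2 higher and 5 lower in mutants, among 812 of all features. The mutant mean was lower for 31 of 42 genes, against 50.3% of all features, and the median was -0.02 against -0.00038. Over the 26 Cyp genes above background on all 6 colon arrays the mutant mean was lower for 18, against 51.2% of 11066 features chosen the same way. The groups did not overlap for 1 gene on the higher and 4 on the lower side, against 4.65% and 4.22% of all features. The 1 on the higher side, Cyp46a1, was above background on the 3 mutant colon arrays and no others. It thus passed the filter only through the group in which it was higher.

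The 5 genes with the smallest p in colon had these values. Cyp4b1-ps2 read 8.92, 9.501 and 9.38 in wild type and 8.75, 8.78 and 8.10 in mutants (-0.72 ± 0.18 SE, limma adjusted p = 0.938). The probe of the gene Cyp4b1 gave a like pattern, with 8.53, 9.22 and 9.05 against 8.64, 8.45 and 7.98, in overlapping groups. Gene and pseudogene are close copies, and whether both probes read the same transcript was not tested. Cyp11a1 read 8.12, 8.39 and 8.24 in wild type and 8.12, 7.88 and 7.83 in mutants (-0.31 ± 0.08 SE, limma adjusted p = 0.938). Cyp2d26 read 9.20, 9.17 and 9.26 against 9.08, 8.75 and 8.68 (-0.37 ± 0.11 SE, limma adjusted p = 0.938), and all 3 of its probes were lower, at -0.29 to -0.37. In both genes mutant 1 was the mutant array nearest to wild type. Cyp2d9 ran the other way, with 9.36, 9.26 and 9.48 in wild type and 9.44, 10.23 and 10.25 in mutants (0.61 ± 0.17 SE, limma adjusted p = 0.938). Mutant 1 lay within the wild-type range, and without it the difference was 0.87 ± 0.06 SE and passed (limma adjusted p = 6.22e-04). Cyp46a1, the cholesterol hydroxylase of brain, read 7.71, 7.71 and 7.73 against 7.79, 7.81 and 7.84, close to background throughout (0.09 ± 0.03 SE, limma adjusted p = 0.938). Cell type markers set colon mutant 2 apart. Over 6 Paneth cell genes it averaged 11.01, and the other colon arrays 8.36 to 9.16. Over 12 absorptive enterocyte genes it averaged 8.39, and the other colon arrays 7.90 to 8.04. The part of these markers in the colon Cyp values was not tested.

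The third comparison puts the same question to the small intestine. There 4 of the 42 Cyp genes fell in mutants and none rose, against 0.679% of all features called (0.17% higher and 0.509% lower). They were Cyp4v3, Cyp2b10, Cyp2b23 and Cyp2j9. At an unadjusted p under 0.05 there were 19 Cyp genes, 17 of them lower, among 1299 of all features, and the mutant mean was lower for 34 of 42 (81%) against 49.9% of all features. The median was -0.11 over the Cyp genes and 0.00010 over all features. The groups did not overlap for 19 genes on the lower and 2 on the higher side, against 6.77% and 6.73% of all features. Among the 19, Cyp17a1 passed the background filter only through the 3 wild-type small-intestinal arrays, the group in which it was higher.

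Cyp4v3 read 12.05, 12.06 and 12.01 on the wild-type arrays and 11.61, 11.48 and 11.36 on the mutant ones. It fell by 0.56 ± 0.07 SE, 1.47-fold (limma adjusted p = 0.0117). Cyp2b10 read 12.40, 12.42 and 12.40 against 12.02, 11.55 and 11.51 and fell by 0.71 ± 0.11 SE, 1.64-fold (limma adjusted p = 0.0202). In both genes the wild-type arrays lay close together and every mutant array lay below them, mutant 1 the closest. The dimmer Cyp2b10 probe differed by -0.18. Cyp2b23 read 9.77, 9.90 and 9.79 against 9.38, 8.98 and 8.95 and fell by 0.72 ± 0.10 SE, 1.65-fold (limma adjusted p = 0.0143). A second Cyp2b23 probe was above background on 0 arrays. Cyp2b10 and Cyp2b23 belong to 1 gene cluster, and whether the Cyp2b23 probe also reads Cyp2b10 transcript was not tested. Cyp2j9, of a subfamily that epoxidises arachidonic acid, read 8.29, 8.27 and 8.37 against 7.89, 8.03 and 7.85 and fell by 0.39 ± 0.06 SE, 1.31-fold (limma adjusted p = 0.0202). Its mutant values were close to those in colon, 7.87 to 8.04. A second Cyp2j9 probe was above background on 0 arrays.

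The 4 calls did not hold in every fit. In the main fit the SE pools the spread of all 4 groups, for Cyp2b10 and Cyp2b23 also that of colon arrays at background. The SD of Cyp2b10 was 0.018 in wild-type and 0.003 in mutant colon. In small intestine it was 0.010 in wild type and 0.28 in mutants. With only the small-intestinal arrays in the fit 0 passed (limma adjusted p = 0.112 for Cyp4v3, 0.216 for Cyp2b23, 0.254 for Cyp2b10 and 0.162 for Cyp2j9), and 0 passed when wild type 1 or wild type 3 was left out, with all 4 differences still negative. Over all features the 108 calls became 3 with only these arrays, 2 without wild type 1 and 0 without wild type 3. Without mutant 3 the call of Cyp2j9 alone was lost among the 4. Leaving out the 3 arrays high in pancreatic markers left 2 wild-type arrays and 1 mutant array, so only sizes are given. The differences there were -0.68 for Cyp4v3, -0.89 for Cyp2b10, -0.83 for Cyp2b23 and -0.48 for Cyp2j9. Of the 42 Cyp genes 31 had a negative difference, with a median of -0.18.

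The promoters of the 4 genes that fell are shown because these were the only members called between genotypes. Each is again the 250 bases before the RefSeq start on GRCm38.p6, at chr7:25897408-25897657 (plus strand), chr7:26686431-26686680 (minus strand), chr4:96591486-96591735 (minus strand) and chr8:45333164-45333413 (minus strand). Capitals mark GCGTG (on the opposite strand it reads CACGC), the core of aryl hydrocarbon receptor sites, AGGTCA, the core of many nuclear receptor sites, and CAAAGT. All were searched on both strands, as were TATAAA, the HNF1 site letters GTTAAT and the GATA factor letters TGATAA. Matches of different motifs were counted separately even where they share bases.
Cyp2b10: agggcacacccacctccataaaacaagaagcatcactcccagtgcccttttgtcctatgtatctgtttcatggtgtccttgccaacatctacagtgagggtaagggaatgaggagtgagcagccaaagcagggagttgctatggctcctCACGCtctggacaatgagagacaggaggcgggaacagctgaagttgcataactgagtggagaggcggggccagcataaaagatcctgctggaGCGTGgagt
Cyp2b23: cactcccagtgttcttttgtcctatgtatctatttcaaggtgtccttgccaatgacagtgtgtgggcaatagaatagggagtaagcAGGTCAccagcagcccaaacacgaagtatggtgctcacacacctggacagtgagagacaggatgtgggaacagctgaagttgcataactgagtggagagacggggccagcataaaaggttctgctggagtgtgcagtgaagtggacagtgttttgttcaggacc
Cyp2j9: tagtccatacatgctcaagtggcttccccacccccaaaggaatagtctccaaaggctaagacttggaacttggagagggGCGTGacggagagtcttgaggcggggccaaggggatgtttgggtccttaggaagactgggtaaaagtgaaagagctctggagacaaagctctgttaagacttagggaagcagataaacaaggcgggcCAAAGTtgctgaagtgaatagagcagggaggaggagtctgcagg
Cyp4v3: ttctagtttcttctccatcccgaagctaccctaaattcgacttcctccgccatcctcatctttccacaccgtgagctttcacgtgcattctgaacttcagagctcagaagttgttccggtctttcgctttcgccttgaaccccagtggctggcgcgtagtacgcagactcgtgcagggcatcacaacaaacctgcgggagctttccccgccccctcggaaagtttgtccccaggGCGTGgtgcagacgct
Cyp2b10 held GCGTG at -9 and, on the opposite strand, at -101. Cyp2j9 held it at -171 and Cyp4v3 at -16, while Cyp2b23 held none and had AGGTCA at -164. Only Cyp2j9 among the 4 held CAAAGT, at -44, and no other searched motif was present in these windows. Among all promoters of this length 28.2% held GCGTG and 13.8% held AGGTCA. The Cyp2b10 and Cyp2b23 promoters were 85.3% identical over 211 aligned bases, and that of Cyp2b10 was 75.8% identical over 240 bases to those of Cyp2b9 and Cyp2b13, whose probes did not pass the background filter.

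**Figure D4:**
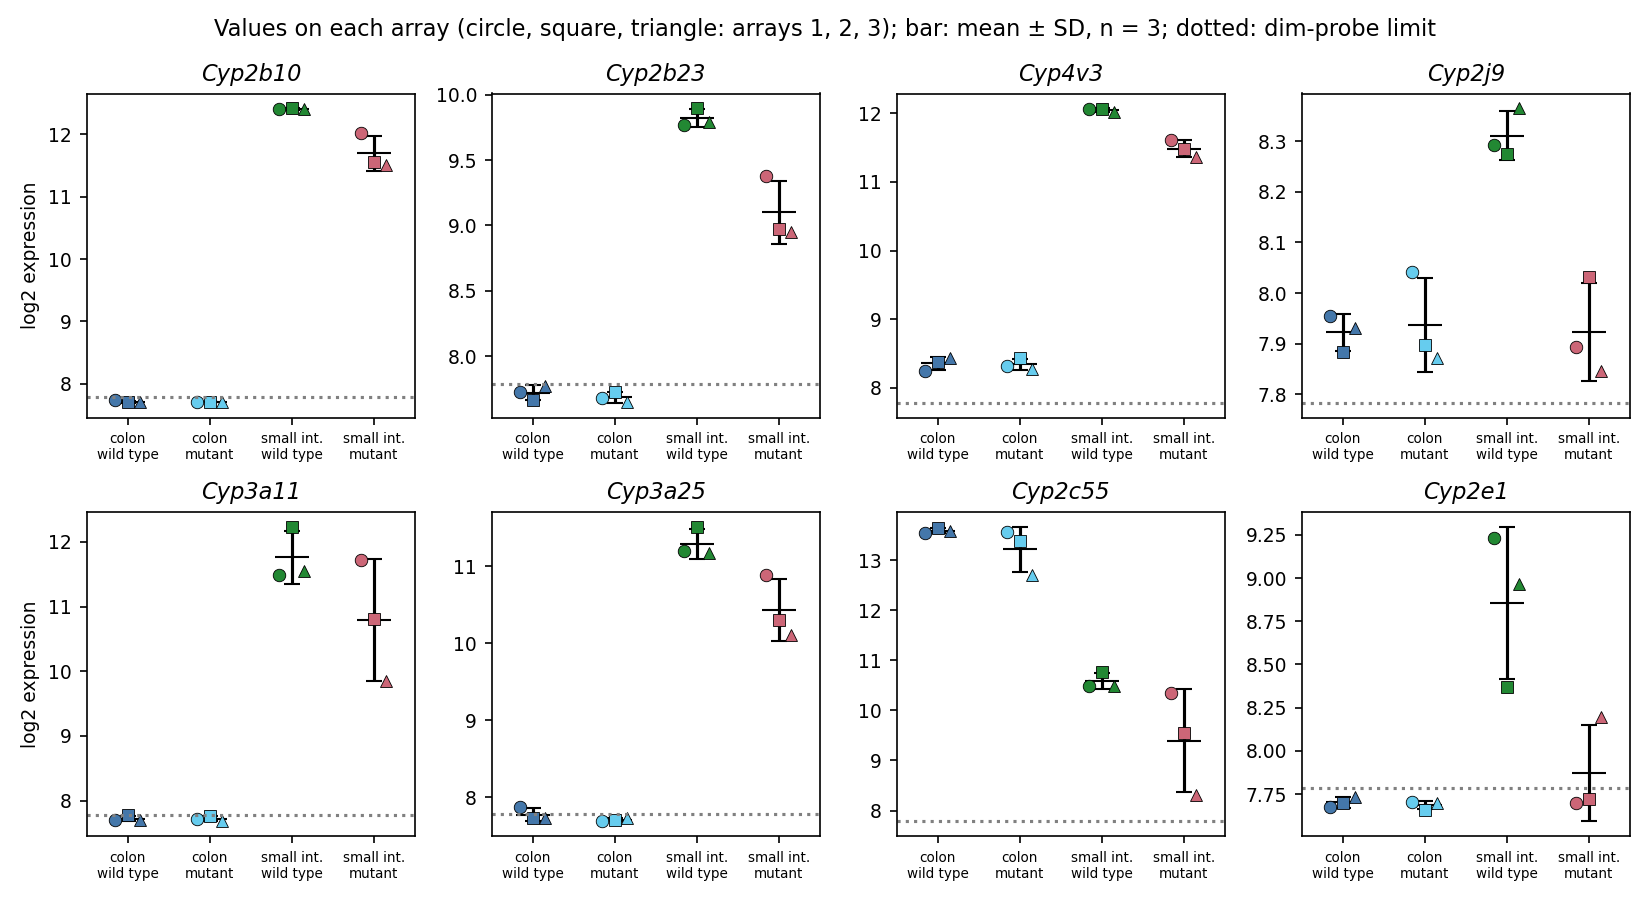
Deposited log2 expression of 8 Cyp genes on each of the 12 arrays, with the mean and SD of each group (n = 3), a vertical scale of its own for each gene and the dotted line at the background limit of 7.78. In Cyp4v3, Cyp2b10, Cyp2b23 and Cyp2j9 all 3 mutant small-intestinal arrays lie below all 3 wild-type ones, while Cyp3a11 overlaps.

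Of the other drug- and steroid-oxidising genes, Cyp3a25 read 11.19, 11.51 and 11.16 in wild-type and 10.88, 10.29 and 10.10 in mutant small intestine (-0.86 ± 0.17 SE, limma adjusted p = 0.0539). The groups were separate, and the difference missed the threshold, which it passed without mutant 1 (limma adjusted p = 0.00201). With all 12 arrays it passed under a filter of 6 arrays, a limit at 5 SD, a trended and robust prior or array weights (limma adjusted p = 0.0131 to 0.0458). Under the other alternatives with all 12 arrays it did not pass. Cyp3a11 read 11.73, 10.81 and 9.85 in mutants, mutant 1 lying above 2 of the wild-type arrays (-0.96 ± 0.37 SE, limma adjusted p = 0.48). Cyp3a13 differed by -0.16 ± 0.11 SE (limma adjusted p = 0.874), so that the 3 genes of family 3 had negative differences of unlike size and none passed.

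Cyp2c55 read 10.34, 9.55 and 8.31 in mutant small intestine against 10.50, 10.77 and 10.49 (-1.19 ± 0.41 SE, limma adjusted p = 0.38). It had the largest difference of the 42 genes and the widest mutant spread, with an SD of 1.02. Without mutant 3 the Cyp2c55 difference was -0.64 ± 0.27 SE, smaller in size than those of Cyp2e1 (-1.14 ± 0.19 SE) and Cyp3a25 (-0.70 ± 0.16 SE) in that fit. Cyp2c65 read 12.49, 12.36 and 11.80 against 12.85, 12.90 and 12.77 (-0.63 ± 0.17 SE, limma adjusted p = 0.229), and its 4 probes gave -0.56 to -0.72. In both genes mutant 3 was the lowest array.

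Cyp2e1 read 9.23, 8.37 and 8.97 in wild type and 7.70, 7.72 and 8.19 in mutants (-0.98 ± 0.19 SE, limma adjusted p = 0.0547). It passed without mutant 3 (-1.14 ± 0.19 SE, limma adjusted p = 0.0406) or without wild type 2 (limma adjusted p = 0.00465). With all 12 arrays it passed under a limit at 5 SD (limma adjusted p = 0.0425) or array weights (limma adjusted p = 0.0222). Under the other alternatives with all 12 arrays it did not pass. The fat cell hormone gene Adipoq read 9.39, 8.32 and 9.27 against 7.76, 7.72 and 8.17 on the same arrays (-1.11 ± 0.23 SE, limma adjusted p = 0.0816), with the same arrays high and low. Of 5 adipocyte markers, 2 were tested, both with a lower mutant mean and neither called. Their part in the Cyp2e1 difference was not tested. Cyp2d26 differed by -0.33 ± 0.11 SE, Cyp2d22 by -0.35 ± 0.13 SE and Cyp2c67 by -0.33 ± 0.11 SE, all with separate groups and none past the threshold (limma adjusted p = 0.39, 0.444 and 0.33). The difference was near 0 for Cyp4f14 (-0.06 ± 0.11 SE), Cyp27a1 (-0.07 ± 0.12 SE) and Cyp39a1 (-0.02 ± 0.05 SE). The 2 genes with separate groups on the higher side were Cyp2b19 and Cyp20a1, at 0.07 and 0.09 on the log2 scale.

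Taking the 24 Cyp genes above background on all 6 small-intestinal arrays, 23 had a lower mutant mean, against 5805 of 11604 features chosen the same way. The lowest of the 6 arrays was mutant 3 for 15 of the 24 and mutant 1 for 6, while over all such features mutant 3 was lowest for 17.2% and mutant 1 for 25.7%. The highest was wild type 2 for 13 of the 24, and no share over all features was computed for the highest array. Mutant 3 is not among the arrays high in pancreatic markers, and wild type 2 is. Over 12 genes, absorptive enterocyte markers averaged 12.04, 12.17 and 12.01 on the wild-type arrays and 12.02, 11.96 and 11.87 on the mutant ones. Of the 10 tested, 9 had a lower mutant mean and 1, the brush-border enzyme gene Treh, fell (-0.43 ± 0.08 SE, limma adjusted p = 0.0393). Immediate early genes averaged 8.46, 8.47 and 8.51 in wild type and 8.88, 8.64 and 8.67 in mutants, over 8 genes. Of these 7 were tested, with 7 of 7 means higher in mutants and none called. Of 8 hepatocyte markers 3 were tested, and none was called. The mutant mean was lower for 4 of 4 tested macrophage markers (median -0.12) and 5 of 6 endothelial markers (median -0.07) and higher for 7 of 7 goblet cell markers (median 0.06), with none called. The part of these markers in the Cyp differences was not tested.

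**Figure D5:**
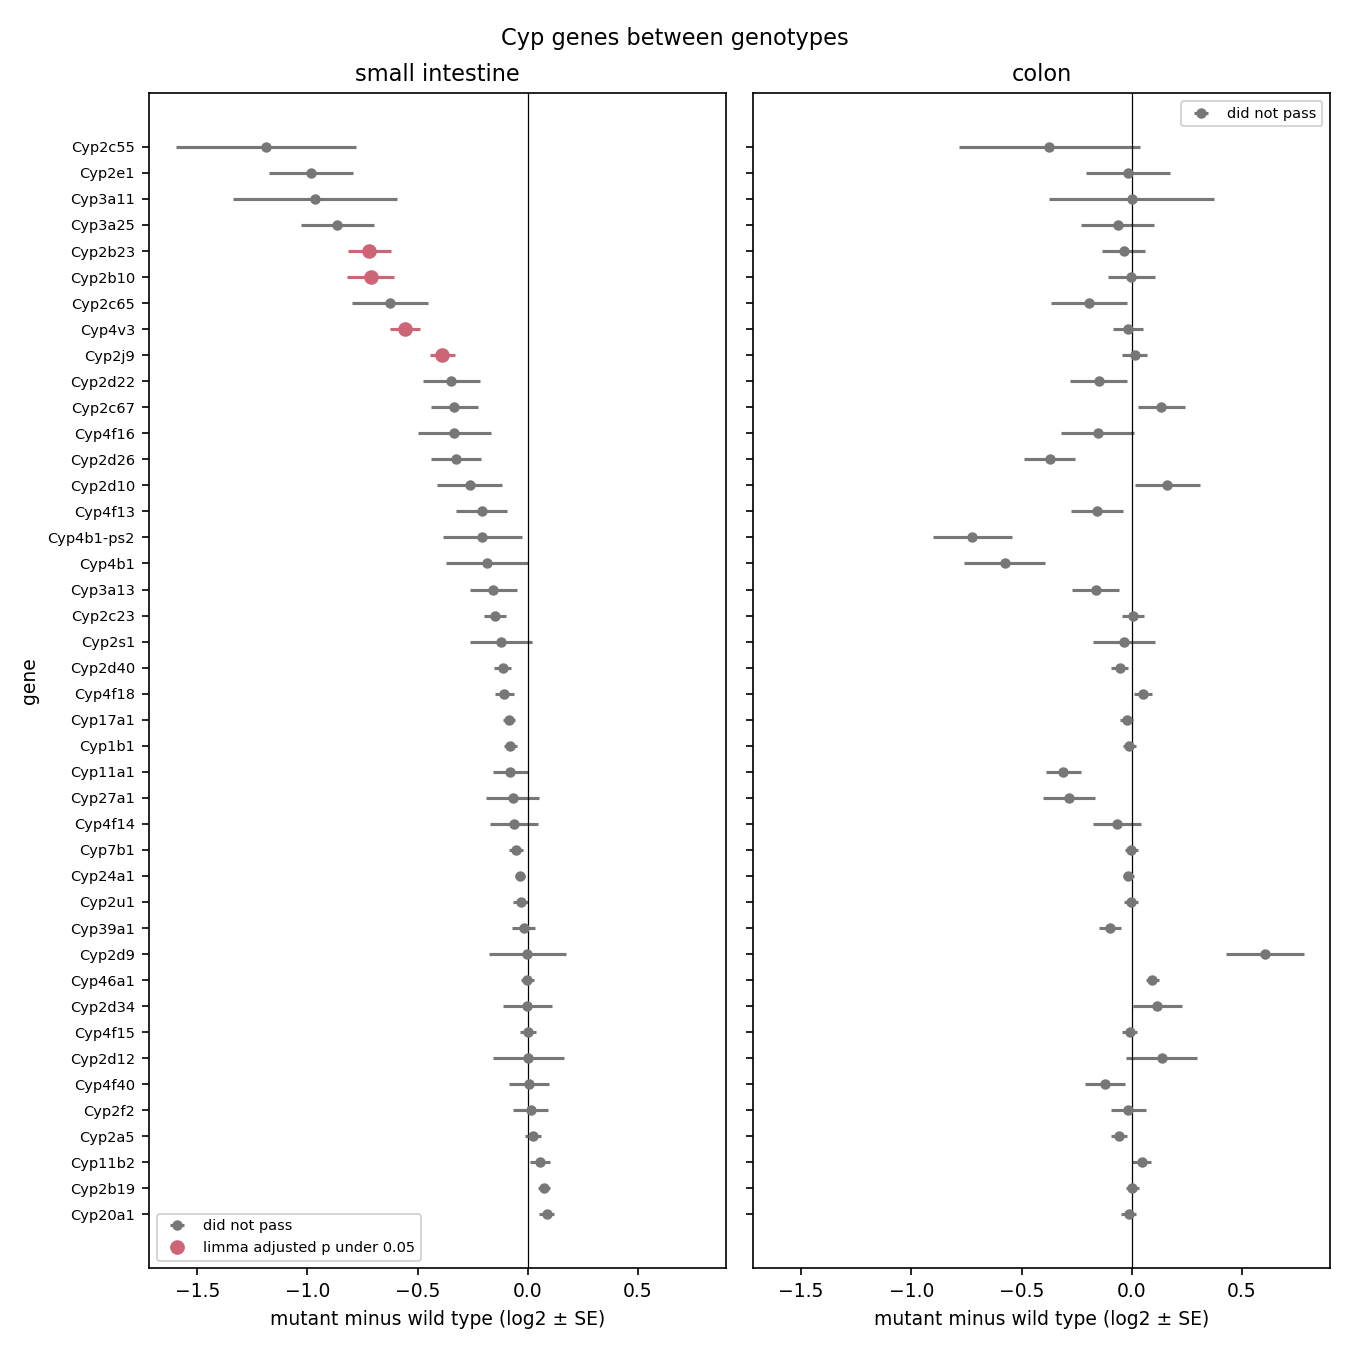
Mutant minus wild type on the log2 scale, with the SE of the limma fit (n = 3 arrays per group), for the 42 tested Cyp genes in small intestine and in colon, in the order of the small-intestinal difference. The 4 genes that passed, Cyp4v3, Cyp2b10, Cyp2b23 and Cyp2j9, are red, 34 of 42 values in small intestine are negative and no gene in colon passed.

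Whether the genotype effect differed between the tissues was tested as an interaction. No Cyp gene passed and 0% of all features did (limma). An unadjusted p under 0.05 was reached by 10 Cyp genes, all with a negative interaction term, among 944 of all features. Of these, Cyp2d9 and Cyp46a1 were at background on all 6 small-intestinal arrays. Their terms rest on higher mutant means in colon (0.61 and 0.09). The smallest p-values were those of Cyp4v3 (-0.54 ± 0.10 SE), Cyp2b23 (-0.68 ± 0.14 SE), Cyp2j9 (-0.40 ± 0.08 SE), Cyp2b10 (-0.71 ± 0.15 SE) and Cyp2e1 (-0.97 ± 0.27 SE), with limma adjusted p of 0.251 for the first 3, then 0.277 and 0.489. The falls in small intestine are therefore not shown to be particular to it. By their brightest probes Cyp2b10, Cyp2b23, Cyp2e1 and Cyp4f18 were at background on all 6 colon arrays, which measures no genotype difference there. Cyp3a25 was above background on 1 of the 6 colon arrays. The dimmer Cyp2b10 probe was above background on 3 of the 6 and differed by -0.04. The count of Cyp genes passing rose to 4 without small-intestinal mutant 1 (Cyp4v3, Cyp2b10, Cyp3a25 and Cyp2b23), among 20 of all features. It was 1 without colon mutant 1 (Cyp2d9), among 5 of all features, and 1 without small-intestinal wild type 2 (Cyp2e1), among 36. Leaving out the 3 arrays high in pancreatic markers left mutant 3 as the lone mutant array of the small intestine, so no count is given. The interaction difference was then negative for 28 of the 42 Cyp genes, with a median of -0.11.

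The genes that serve the P450 system were read beside them. Of 6 electron donors 3 were tested, and all 3 were higher in wild-type small intestine than in colon: Cyb5a and Cyb5b, the cytochromes b5, by 1.78 ± 0.11 and 0.93 ± 0.04 SE, and Cyb5r3, their reductase, by 1.95 ± 0.07 SE (limma adjusted p = 4.07e-07, 1.89e-08 and 5.93e-09). Both membrane haem-binding partners, Pgrmc1 and Pgrmc2, were higher too, by 0.77 ± 0.08 and 0.48 ± 0.05 SE. Of 5 genes of haem synthesis and breakdown 2 were lower, Fech, which inserts iron into haem, by 0.19 ± 0.04 SE and Blvrb by 0.44 ± 0.07 SE. Neither of the 2 tested genes of the aryl hydrocarbon receptor axis was called. Of 17 nuclear receptors and partners 14 were tested, 4 higher and 6 lower in small intestine. Nr1i3, the constitutive androstane receptor, read 9.90, 9.99 and 9.94 in wild-type small intestine and 7.83, 8.03 and 8.01 in colon (1.99 ± 0.09 SE, limma adjusted p = 3.29e-08). Nr1i2, the pregnane X receptor, did not pass (0.16 ± 0.08 SE, limma adjusted p = 0.126). Among the receptors lower in small intestine were Pparg (-1.86 ± 0.06 SE) and the bile acid receptor Nr1h4 (-1.51 ± 0.11 SE).

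Between genotypes no tested gene of these 5 lists was called in either tissue (limma). In small intestine Nr1i3 read 9.62, 10.003 and 9.75 in mutants (-0.15 ± 0.09 SE, limma adjusted p = 0.774), Cyb5a differed by -0.35 ± 0.11 SE (limma adjusted p = 0.317) and Ppard by 0.31 ± 0.10 SE (limma adjusted p = 0.349).

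Of the 86 Cyp genes, 28 had several probes and 9 had several that passed. Probes of Cyp2b10, Cyp2c65, Cyp2d26, Cyp3a13, Cyp4f16 and Cyp27a1 agreed in direction in the wild-type tissue difference and in both genotype contrasts. For Cyp27a1 the 3 probes gave 0.74, 0.80 and 0.68 between tissues in wild type, and for Cyp3a13 they gave 1.80, 1.75 and 1.28. Sizes differed more for Cyp4f16, at 0.73, 0.15 and 0.50. Probes of Cyp11a1 and Cyp39a1 agreed less well, as given above, and those of Cyp2u1, all near background, had opposite signs between tissues.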

How the data were processed

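Gene expression was read from Illumina BeadChip arrays. The deposited values are log2 intensities of 45281 probes, and the authors' columns have nearly identical quantiles (7.59 to 14.90 overall), as quantile normalisation gives. The only tool in the submitters' processing notes is limma, with no version. How background was handled was not given in the sources used here. A further 24 deposited columns of unnormalised values, whose names match no sample label, were not used. Values do not fall to 0 but to a floor near 7.70, so log2 differences of dim probes are understated.

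The background limit was the mode of all values plus 3 mirrored SD (0.0278), 7.78. Probes above it on at least 3 arrays were kept, and the probe with the highest mean stood for its gene, which left 15909 features (12132 genes and 3777 probes without a single symbol). Symbols came from the platform annotation. It gives 1 symbol for 34885 probes, several for 18 and none for 10378, and Entrez numbers matched 34807. All 12 arrays were fitted with limma 3.58.1 in R 4.3.3, a mean per group, 8 residual degrees of freedom and a variance prior of 2.15. Two-sided p-values were adjusted over all features by the Benjamini-Hochberg method, with a threshold of 0.05, and the fit was tested on simulated data. With 3 arrays a group, exact permutation could reach no p under 0.1, and the number of arrays limits the precision. A fold is a bound where all 3 arrays of a group were below background. It sets the bright group's mean against, per dim array, the higher of the lowest signal above background and the probe's own value.

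Values per array are given for genes called between genotypes, those of smallest p up to 5 per genotype contrast and interaction, the 10 largest tissue differences called in each direction in wild type, and 21 set genes. Other genes are described by difference. The members, gene lists and tests were chosen with earlier results of these data known. Promoters are from RefSeq, which listed 62 of the 86 genes, and were aligned with Biopython 1.88. Alternatives covered filter, probe choice, prior, weights, normalisation, background, replicate block and each array left out. Leaving out 3 arrays high in pancreatic markers was chosen after seeing the data.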

Additional observations from a re-analysis of the deposited data

How the results depend on the processing

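Under every alternative run, the counts of Cyp genes called between tissues stayed within 1.5 times of the main ones. They were 24 to 30 in wild type (28 in the main fit) and up to 27 in mutants (23 in the main fit). No difference of a named gene that was called or exceeded its SE changed sign. A sign change in a smaller difference that was not called was not counted. The count in small intestine between genotypes was 4. It was 0 with only the small-intestinal arrays in the fit and 0 after background subtraction on the linear scale with an offset of 16 (adjusted p from 0.0569 for Cyp2j9 to 0.176 for Cyp4v3), and the cause was not tested. It was 6 with a limit at 5 SD, 6 with array weights and 9 without the 3 arrays high in pancreatic markers, which leaves 1 mutant array there, and where the interaction count went from 0 to 6. Over the fits with 1 array left out it ran from 0 to 5, the 0 arising without small-intestinal wild type 1 or wild type 3. The interaction count ran from 0 to 4 and the colon count from 0 to 1, the 1 being Cyp2d9 without colon mutant 1. All features called between genotypes in small intestine numbered 108, 3 with only those arrays, 19 after background subtraction and 179 with array weights.

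With the array number as a replicate block 3 genes were called in small intestine, Cyp2j9 being lost (adjusted p = 0.0518), and 28, 22, 0 and 0 in the other contrasts. Whether equal numbers mark 1 mouse cannot be decided from correlations between different tissues with 3 arrays a group. Deviations of arrays with the same genotype and number correlated across tissues at -0.04 to 0.16, with 1 of 6 over 0.1. Within a tissue, those of the same number and the other genotype correlated at -0.21 to 0.37, with 3 of 6 over 0.1. A slide block was not run, since the values used come with no slide, and the interaction, which uses all 4 groups, has no fit on the groups compared alone. Signal over background limits the dim genes: values below 7.78 carry no order.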

Other observations

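RefSeq promoters were held for 62 of the 86 Cyp genes, tested or not, and were searched on both strands over the 250 bases before the start. CAAAGT, the core of HNF4 sites, was in 28 of the 62 (45.2%) and in 12.5% of all 27025 promoters. TATAAA was in 23 (37.1%) and in 13%. AGGTCA was in 14 (22.6%) against 13.8%, TGATAA, the core of GATA factor sites, in 9 (14.5%) against 8.16%. The letters of HNF1 sites, GTTAAT, were in 6 (9.68%) against 6.52%, while GCGTG was in 13 (21%) against 28.2%. Close copies within a cluster can share promoter sequence and are then not independent, as with Cyp2d9 and Cyp2d10 (85% identical). The promoters of the neighbours Cyp3a11 and Cyp3a25 were 64.7% identical. Those 2 were 64.4% and 63.6% identical to that of Cyp3a13, which lies apart from them on chromosome 5. The identity of unrelated promoters was not computed for comparison. No test was made of these shares, and a match is no evidence of binding.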
